A study of Mus musculus with 12 samples.

Results

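T-box genes encode transcription factors that share a DNA-binding domain, and 8 of them (Tbx1, Tbx2, Tbx3, Tbx4, Tbx5, Tbx15, Tbx18 and Tbx20) were followed here in whole embryonic mouse testes, chosen by gene symbol from the 24470 genes of the count table. They are factors of urogenital mesenchyme and other mesoderm. Bulk RNA-seq had been made from 12 libraries, each from a pool of 3 testes at embryonic stage E14.5. The 6 control libraries carried the floxed allele alone (Nr2f2 f/f), and the 6 conditional knockout (cKO) libraries came from Wt1 CreER x Nr2f2 f/f embryos, in which tamoxifen activates Cre recombinase in cells that express Wt1 and removes Nr2f2. The study describes tamoxifen injection of pregnant females that carried both genotypes. The controls carried no Cre, so effects of the Cre allele at Wt1 and of Nr2f2 loss cannot be told apart. Nr2f2 encodes a nuclear receptor of the non-steroidogenic interstitial cells. The Cre acts in more cell types than the interstitium, recombination was not complete, and the labels do not say which pools shared a litter, so the p-values measure the spread between pools.

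T-box factors bind short DNA elements and switch genes on or off in developing mesoderm, often at a dose-sensitive level. In mammals they fall into subfamilies, of which one holds Tbx1, Tbx15, Tbx18, Tbx20 and Tbx22, and another holds Tbx2, Tbx3, Tbx4 and Tbx5. Tbx18 is best known from the mesenchyme around the ureter, where it is needed for smooth muscle to form, whereas Tbx2 and Tbx3 are mainly repressors that keep progenitor cells dividing.

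Library totals ranged from 7044531 to 39965574 counts in control and from 7322959 to 59404778 in cKO. Nr2f2 lay between 163 and 186 CPM (counts scaled to library size) in the control pools and between 50.2 and 119 CPM in the cKO pools, without overlap, with the highest cKO value in replicate 2. Xist, which is transcribed from the inactive X chromosome of XX cells, was high, above 100 CPM, in 4 pools (replicate 1 of the controls, replicates 3, 5 and 6 of the cKO) and lay between 5.15 and 7.68 CPM in the other pools. Markers of ovarian supporting cells (Foxl2, Fst, Bmp2 and Irx3) went with it: their summed level was 169 CPM in control replicate 1 and 73.7 to 118 CPM in those 3 cKO pools, against 9.11 to 12.6 CPM in the other controls and 14.7 to 20.9 CPM in the other cKO pools. The labels call all 12 libraries testis. Each member is therefore also given in the 5 control and 3 cKO libraries with low Xist wherever that changed its call or its direction.

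Of the 8 factors, 7 passed the filter on low counts and Tbx5 did not. In edgeR's quasi-likelihood test, with p-values adjusted over all 15572 genes tested, 2 of the 7 were higher in cKO, namely Tbx18 and Tbx4. Among all genes tested, 3.28% were called higher. The members were chosen with earlier results of these data known, so this share is set beside them as a description. None of the 7 was called lower, against 4.85% of all genes tested, and none had a negative fold change at an unadjusted p under 0.05 in edgeR, DESeq2 or limma-voom. Both Tbx18 and Tbx4 were higher in all 6 cKO pools than in any control pool, a separation that 5.52% of all genes tested showed in either direction. The median log2 fold change of all genes tested was 0.003. The plot of the members by pool shows these values.

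**Figure D1:**
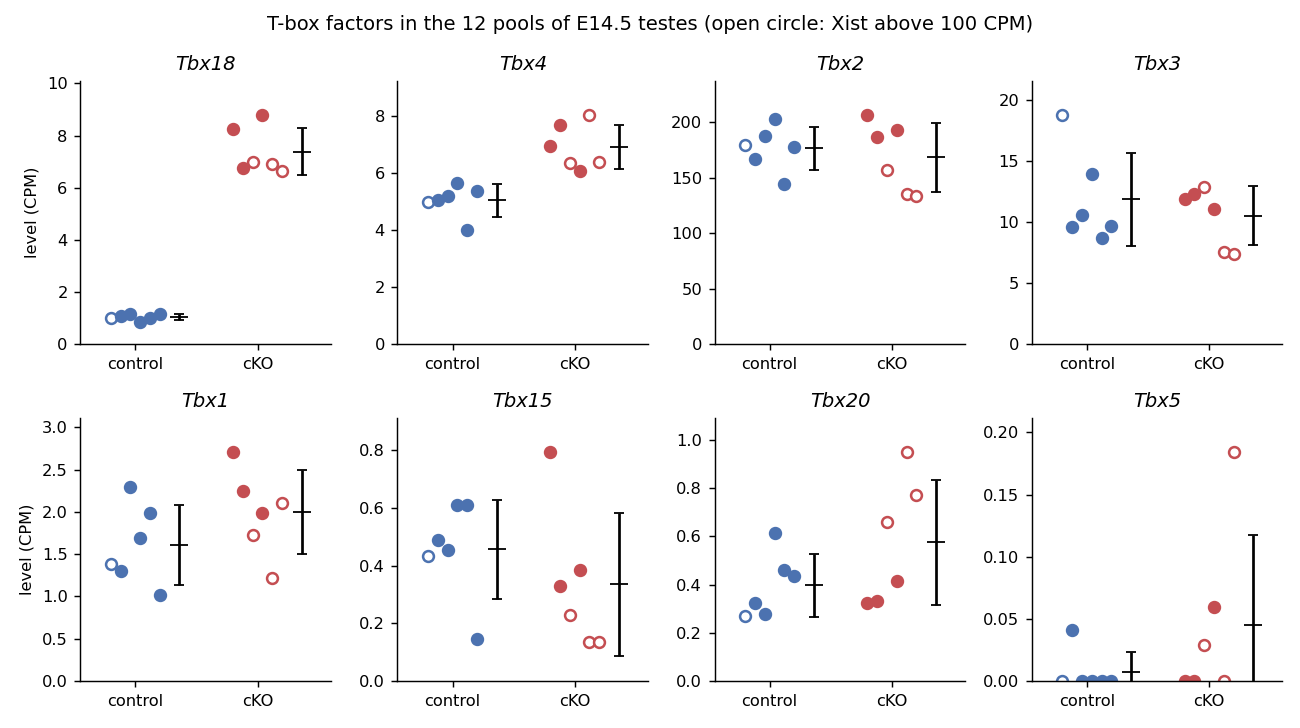
Level of each T-box factor in CPM (counts scaled to library size, vertical axes from 0) in 6 control and 6 cKO pools of E14.5 testes. Each circle is 1 pool, open where Xist exceeded 100 CPM, and the bar gives the mean ± SD (cut off at 0 for Tbx5). Tbx18 and Tbx4 separate the groups, and the other 6 factors overlap.

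The RefSeq promoter table (GRCm38.p6, which shares its coordinates with the mm10 build of the counts) held an entry for 4 of the 8 members, of which Tbx18 and Tbx4 are the pair that were called. Their promoters are shown because they are the members whose RNA changed when a nuclear receptor was removed, and the one of Tbx1 because it is the member promoter with a motif match. Each runs from 250 bases before to 50 bases after a start site, on the strand of the gene. The Tbx18 sequence lies at chr9:87731211-87731510 on the minus strand, that of Tbx4 at chr11:85896515-85896814 on the plus strand, inside the Tbx4 gene interval, and that of Tbx1 at chr16:18590622-18590921 on the minus strand. Capitals mark a match to AGGTCA, an element that nuclear receptors bind, or AGGTGT, the core of the T-box element, on either strand.
Tbx18: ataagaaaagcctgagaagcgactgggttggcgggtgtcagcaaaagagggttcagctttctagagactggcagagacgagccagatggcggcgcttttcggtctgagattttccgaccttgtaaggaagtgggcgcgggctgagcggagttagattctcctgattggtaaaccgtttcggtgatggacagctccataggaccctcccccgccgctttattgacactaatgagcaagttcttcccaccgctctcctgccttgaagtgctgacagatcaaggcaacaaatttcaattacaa
Tbx4: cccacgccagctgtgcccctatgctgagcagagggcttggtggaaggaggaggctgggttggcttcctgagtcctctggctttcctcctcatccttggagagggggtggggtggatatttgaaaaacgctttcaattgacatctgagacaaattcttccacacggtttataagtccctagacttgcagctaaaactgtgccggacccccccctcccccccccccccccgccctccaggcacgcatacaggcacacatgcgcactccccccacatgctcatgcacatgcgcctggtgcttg
Tbx1: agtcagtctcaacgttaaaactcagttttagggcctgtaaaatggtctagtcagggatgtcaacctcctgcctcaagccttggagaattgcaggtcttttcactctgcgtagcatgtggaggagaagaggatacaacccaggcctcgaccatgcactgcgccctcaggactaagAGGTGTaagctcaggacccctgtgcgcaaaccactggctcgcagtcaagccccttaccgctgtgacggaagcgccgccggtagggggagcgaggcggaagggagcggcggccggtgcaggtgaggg
Neither the Tbx18 nor the Tbx4 window held AGGTCA or AGGTGT on either strand, which says only that these letters are not in these windows. Of the 32851 mouse promoters of this length, 16.3% held AGGTCA and 13.7% held AGGTGT. The Tbx1 match was to AGGTGT, from position -76 to -71 relative to the start site. A second Tbx1 promoter and that of Tbx20 held neither motif. Among the family genes outside the members, a Tbx22 promoter held AGGTCA on the opposite strand from -129 to -124 and from 24 to 29. That of T held AGGTGT from -14 to -9. The Tbx18 window had 51.7% G and C, close to the median of 52.7% over all promoters, while the Tbx20 window had 68.3%.

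Tbx18 (Entrez 76365; chr9:87702800-87731260, minus strand, 8 merged exons) had the largest fold change among the 7 members tested. Its level in the 6 control pools ran from 0.847 to 1.16 CPM with a median of 1.05, and in the 6 cKO pools from 6.65 to 8.77 CPM with a median of 6.95. Every cKO pool thus stood far above every control pool, and the pools within each group lay close together. The mean was 1.04 ± 0.119 CPM in control and 7.39 ± 0.899 CPM in cKO (SD, n = 6 each), a 7.10-fold difference with a log2 fold change of 2.83 (SE 0.13, 95% interval 2.53 to 3.13, edgeR adjusted p = 2.57e-08). By p-value Tbx18 ranked 2 among the 15572 genes tested, and by log2 fold change it ranked 10. The control values rest on 8 to 46 counts per library and the cKO values on 51 to 397, so the control level was low but was read in every pool.

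Tbx18 can be set beside the Nr2f2 RNA left in each of the 6 cKO pools, a relation that was not tested. Replicate 2, which kept the most Nr2f2 at 119 CPM, had 6.74 CPM of Tbx18, and replicate 5, which kept the least at 50.2 CPM, had 6.92 CPM. The highest Tbx18 values were 8.77 CPM in replicate 4 and 8.27 CPM in replicate 1, whose Nr2f2 stood at 78.8 and 78.9 CPM. Replicate 6 had the lowest Tbx18, 6.65 CPM, with 53.6 CPM of Nr2f2, and replicate 3 had 6.98 CPM with 75.4 CPM. In the libraries with low Xist the log2 fold change was 2.92, and no fit with another test, scaling, filter or set of libraries took it outside 2.77 to 2.92 or ended the call. The plot of the fits shows that range beside the one of Tbx4.

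Because these are whole testes, more cells that express Tbx18 and more Tbx18 RNA per cell cannot be told apart, and the same holds for every other gene below. Tbx18 is also known from mesenchyme next to the gonad, so the marker lists of the other cell types are given beside it. Of all genes tested 3.28% were called higher and 4.85% lower, which are the rates to set beside each list. Of the 3 mesonephric mesenchyme markers (Itga8, Ntrk3 and Rxfp2) none was called by edgeR or DESeq2 (1 was lower at an unadjusted p under 0.05), and their summed level was 69.2 to 139 CPM in control and 91.4 to 104 CPM in cKO. Itga8, which sets most of that sum, had a log2 fold change of 0.10 (SE 0.14, adjusted p = 0.689). Of the 6 mesonephric epithelium markers 4 were tested and 1, the kidney and duct factor Pax8, was higher (log2 fold change 0.47, SE 0.14, adjusted p = 0.0488), a call lost in the libraries with low Xist (adjusted p = 0.0808) and held in 2 of the 12 fits that left out a library. All 4 had positive values (median log2 fold change 0.72), and in edgeR Pax8, Gata3 and Pax2 were higher at an unadjusted p under 0.05. Pax8 also marks the supporting-like cells of the gonad. The sum of that list ran from 4.94 to 9.52 CPM in control and from 8.003 to 11.2 CPM in cKO.

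Several markers of testicular cells were on the other side from Tbx18. All 5 contractile markers were lower (median log2 fold change -1.05), with sums of 563 to 692 CPM in control against 335 to 514 CPM in cKO. Of these, Mylk held its call in 2 of the 12 fits without a library (adjusted p up to 0.103) and Cnn1 in 9 (up to 0.0530). Of the 7 interstitial markers 3 were lower, Nr2f2 itself among them, and 1 was higher. Of the 6 pericyte markers 1 was lower, Lgi1, which held its call in 3 of the 12 fits without a library, and of the 5 testicular epithelium markers 1 was lower, Pdgfc. Of the 4 immune markers 2 were higher, and their sums did not overlap, at 25.4 to 33.3 CPM in control and 36.7 to 46.7 CPM in cKO. Fetal Leydig markers went down, with 4 of 5 lower (median log2 fold change -0.91) and sums of 1561 to 2910 CPM in control against 841 to 1745 CPM in cKO. Hsd3b1, among the 4, held its call in 4 of the 12 fits without a library (adjusted p up to 0.0883). The 4 included the hormone gene Insl3, at a log2 fold change of -2.35 (SE 0.44, adjusted p = 0.00434), and the steroidogenic enzyme Cyp17a1, at -1.15 (SE 0.25, adjusted p = 0.0110). Of the 4 endothelial markers 1 was lower, the receptor Tek (log2 fold change -0.41, SE 0.11, adjusted p = 0.0352), which held its call in 4 of the 12 fits without a library. None of the 5 Sertoli or 4 germ markers was called by edgeR or DESeq2, and none had an unadjusted p under 0.05 in edgeR. The 4 ovarian supporting markers were not called on all libraries either, but all 4 were called higher without control replicate 1, with log2 fold changes of 4.49 for Foxl2, 4.03 for Irx3, 2.69 for Fst and 1.12 for Bmp2. In the libraries with low Xist, where the log2 fold change of Tbx18 was 2.92, Foxl2 (1.45, adjusted p = 0.00958), Fst (0.62, adjusted p = 0.0216) and Bmp2 (0.67, adjusted p = 0.0379) were higher and Irx3 was not called. Of the 4 skeletal muscle markers Myod1 and Myf5 were too low to test, averaging at most 0.211 CPM in either group. Myog averaged 0.598 CPM in control and 0.766 CPM in cKO, and Actn2 21.5 and 17.9 CPM. Neither was called by edgeR on all libraries, and Myog was called higher in 1 of its 11 alternatives. The part of these lists in the rise of Tbx18 was not tested.

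Tbx4 (Entrez 21387; chr11:85890063-85916097, plus strand, 10 merged exons), which drives outgrowth of the hindlimb and the lung, was the other member called. Its level ran from 3.98 to 5.65 CPM in control, with a median of 5.11, and from 6.08 to 8.01 CPM in cKO, with a median of 6.65. The groups did not overlap, but the lowest cKO pool came close to the highest control pool. The means were 5.03 ± 0.569 and 6.90 ± 0.786 CPM (SD, n = 6 each), a 1.36-fold difference with a log2 fold change of 0.44 (SE 0.11, 95% interval 0.19 to 0.70, edgeR adjusted p = 0.0281). The size hardly moved among the other fits, but the call was lost in the libraries with low Xist (log2 fold change 0.44, adjusted p = 0.0729). It was also lost when control replicate 2, or cKO replicate 1, 2 or 5, was left out, with adjusted p of 0.0569, 0.0571, 0.0539 and 0.0583. A fit with a replicate block lost the call as well (edgeR adjusted p = 0.0932).

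**Figure D2:**
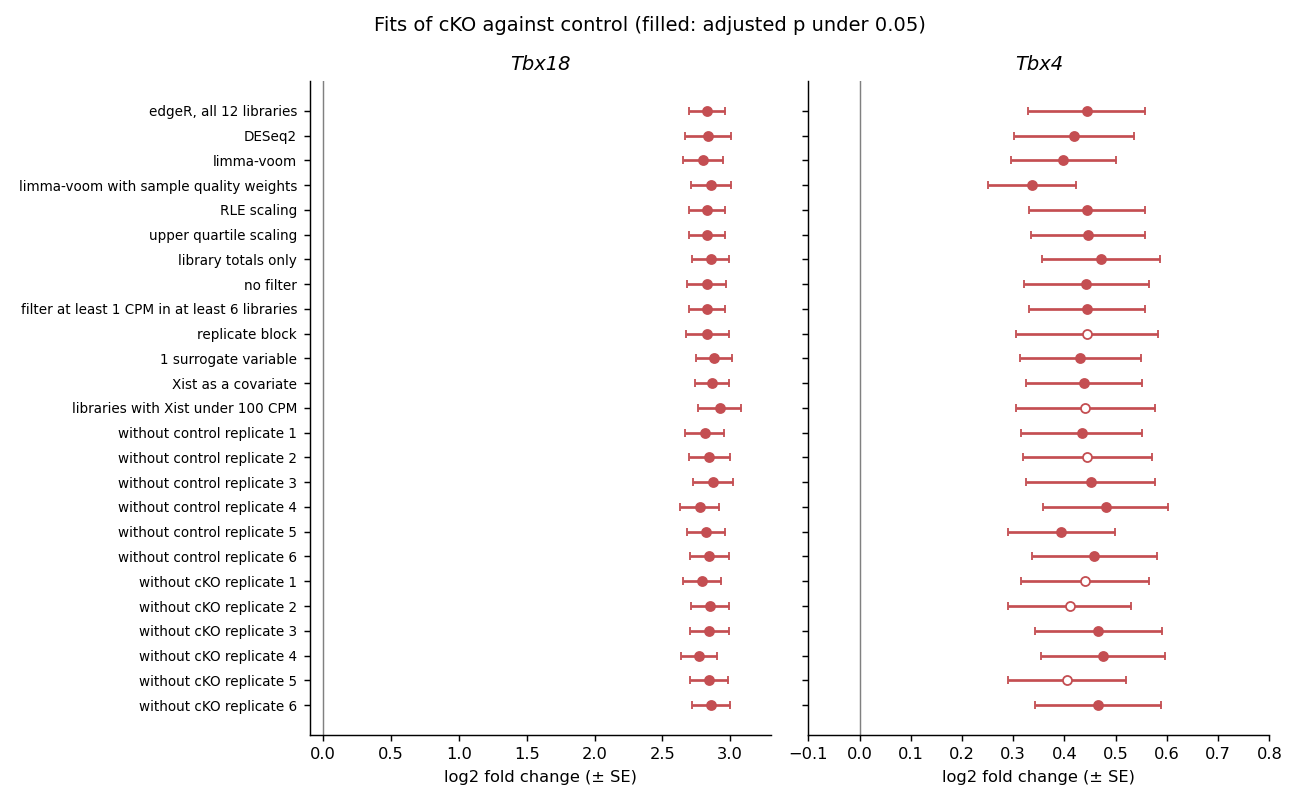
Log2 fold change of Tbx18 and Tbx4, cKO against control, with its SE (horizontal axes), in edgeR on all 12 libraries and in 24 other fits (vertical axis). Filled points passed an adjusted p of 0.05: Tbx18 did in all 25 fits, and Tbx4 lost the call in 6 of them without leaving 0.34 to 0.48.

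Tbx4 shares its stretch of chromosome 11 with Tbx2 (Entrez 21385; chr11:85832615-85841948, plus strand, 7 merged exons), a repressor of cell cycle inhibitors, which ends 48115 bases before Tbx4 starts. Tbx2 had by far the highest level per kilobase of the 8 factors and did not pass the test. It ran from 145 to 203 CPM in control, with a median of 178, and from 133 to 206 CPM in cKO, with a median of 172. The groups overlapped over nearly their whole range. The log2 fold change was -0.07 (SE 0.12, 95% interval -0.33 to 0.19, adjusted p = 0.748), which leaves room for a modest difference either way. Within cKO, the 3 pools with high Xist held the lowest values, at 157, 135 and 133 CPM, against 206, 186 and 193 CPM in the others, while control replicate 1 stood at 180 CPM. In the libraries with low Xist the sign turned, to a log2 fold change of 0.15 (adjusted p = 0.329).

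Of the 4 tested neighbours of Tbx2 within 200 kb, Tbx4 was the only one called. The non-coding gene 2610027K06Rik, which starts 227 bases from Tbx2 on the opposite strand, had a log2 fold change of 0.48 (SE 0.18, adjusted p = 0.117). Bcas3, a broadly expressed gene that ends 6557 bases before Tbx2, averaged 92.4 CPM in control and 93.7 CPM in cKO. Tbx18 had no gene of the table within 200 kb, and none of the tested neighbours of Tbx1, Tbx3 or Tbx15 was called by edgeR or DESeq2, also at an unadjusted p under 0.05.

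Tbx3 (Entrez 21386; chr5:119670862-119684724, plus strand), the closest relative of Tbx2 and likewise a repressor, stood at 8.72 to 18.8 CPM in control, with a median of 10.1, and at 7.42 to 12.9 CPM in cKO, with a median of 11.5. The groups overlapped, and the highest control value belonged to replicate 1, the control pool with high Xist. The log2 fold change of -0.18 (SE 0.20, 95% interval -0.63 to 0.27, adjusted p = 0.596) rested on that pool. Without it the value was 0.004, and in the libraries with low Xist it was 0.15 (adjusted p = 0.483).

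Tbx5 (Entrez 21388; chr5:119834663-119885218, plus strand), the forelimb and heart factor, lies 149939 bases beyond Tbx3 and was almost unread. The 6 control libraries together held 1 count, and the 6 cKO libraries held 14, of which 11 came from cKO replicate 6, the deepest library. Over the summed counts the ratio of cKO to control was 11.2 (exact 95% interval 1.70 to 473), and without cKO replicate 6 it was 3.60 (0.289 to 189). The intervals cover counting error only and treat each group as 1 library. Of the heart regulators in the list of T-box partners, Hand1 was read at 9 counts in replicate 6 and 2 in replicate 5 of the cKO, and 0 in the other 10 libraries. Nkx2-5 had 2 counts, both from cKO replicate 6. Tbx5, Hand1 and Nkx2-5 were thus all read in the deepest library, and the part of depth was not tested. Scaled to library size, Hand1 was higher in cKO replicate 5, at 0.271 CPM, than in replicate 6, at 0.151 CPM. The heart gene Nppa was read at 1 count each in cKO replicates 1, 2 and 5 and in no other library.

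The remaining members belong to the subfamily of Tbx18 and were low. Tbx1 (Entrez 21380; chr16:18581704-18590671, minus strand), a factor of the pharyngeal arches, ran from 1.01 to 2.29 CPM in control and from 1.22 to 2.71 CPM in cKO. With medians of 1.54 and 2.05 the groups overlapped, and the log2 fold change was 0.31 (SE 0.21, 95% interval -0.17 to 0.78, adjusted p = 0.379). Tbx15 (Entrez 21384; chr3:99253760-99354260, plus strand), which patterns the skin and the limb skeleton, ran from 0.145 to 0.612 CPM in control and from 0.134 to 0.794 CPM in cKO. Its log2 fold change was -0.48 (SE 0.40, 95% interval -1.38 to 0.42, adjusted p = 0.473), on as few as 1 count per library, and was 0.08 in the libraries with low Xist. The highest cKO value belonged to replicate 1, and without that pool the log2 fold change was -0.96 (adjusted p = 0.124), while without cKO replicate 6 it was -0.23 (adjusted p = 0.735).

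Tbx20 (Entrez 57246; chr9:24720812-24774303, minus strand), needed for heart muscle growth, stood at 0.271 to 0.612 CPM in control and at 0.325 to 0.950 CPM in cKO. The groups overlapped, although the 3 cKO pools with high Xist, at 0.660, 0.950 and 0.770 CPM, lay above every control pool and the other 3 cKO pools did not. Control replicate 1, which also has high Xist, held the lowest control value, 0.271 CPM. The log2 fold change was 0.57 (SE 0.32, 95% interval -0.14 to 1.29, adjusted p = 0.273). In the libraries with low Xist it did not pass the filter and was not tested. Tbx20 lies on the same chromosome as Tbx18, but neither of its 2 neighbours within 200 kb passed the filter.

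Per kilobase of merged exon, the order of the levels in control was Tbx2, Tbx3, Tbx4, Tbx1, Tbx18, Tbx15, Tbx20 and Tbx5. Tbx2 reached 48.7 CPM per kb, 21.3 times the 2.28 CPM per kb of Tbx3, and took 91.1% of the summed length-adjusted level of the 8 factors. Tbx4 followed at 1.48, Tbx1 at 0.602, Tbx18 at 0.223, Tbx15 at 0.128 and Tbx20 at 0.0414 CPM per kb. The ranges of neighbours in this order did not overlap, with the exception of Tbx15 and Tbx20.

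In cKO the middle of the order changed. Tbx18, at 1.58 CPM per kb, moved up past Tbx1 at 0.748 CPM per kb, with no overlap between their ranges, and reached the lower end of the range of Tbx3, which averaged 2.03 CPM per kb. Tbx4, also at 2.03 CPM per kb, could not be told from Tbx3. The share of Tbx18 in the summed level of the 8 factors went from 0.417% to 2.98%, that of Tbx4 from 2.77% to 3.83%, and that of Tbx2 from 91.1% to 87.6%. The plot of length-adjusted levels shows this order.

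**Figure D3:**
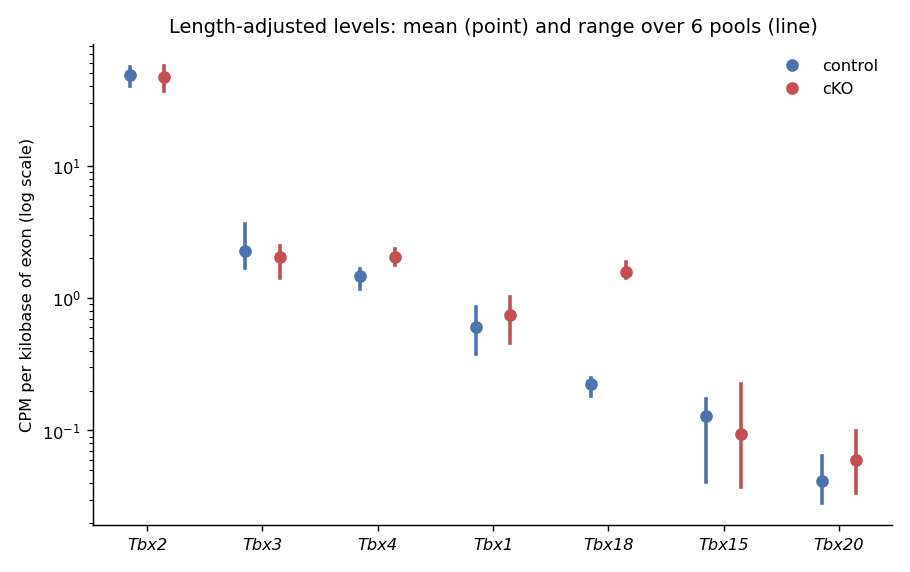
CPM per kilobase of merged exon (log scale) for the 7 factors that passed the filter on low counts, ordered by their control mean, with control and cKO side by side. Points are means and lines run from the lowest to the highest of 6 pools. Tbx18 goes from 0.223 to 1.58 CPM per kb, between Tbx1 and Tbx3, and the lowest Tbx2 pool stands at 36.8.

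Of the other T-box genes, 9 were in the table and 5 passed the filter. Tbx22, an X-linked factor of palate development in the subfamily of Tbx18, was the only one called, and it went the other way. It ran from 1.22 to 2.22 CPM in control, with a median of 1.54, and from 0.407 to 1.52 CPM in cKO, with a median of 0.519. Of the 6 cKO pools 5 lay below every control pool, and the exception was replicate 2, which kept the most Nr2f2. The log2 fold change was -1.25 (SE 0.29, edgeR adjusted p = 0.0176). In the libraries with low Xist it was -1.13 and the call was lost (adjusted p = 0.0774).

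Eomes (log2 fold change 0.51, SE 0.22, adjusted p = 0.165), Tbx6, T and Mga were not called. Mga, which pairs a T-box with a second DNA-binding domain, stood at 320 ± 35.1 CPM in control and 342 ± 36.7 CPM in cKO. Tbr1, Tbx10, Tbx19 and Tbx21 were too low to test. The plot of log2 fold changes sets the whole family side by side.

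**Figure D4:**
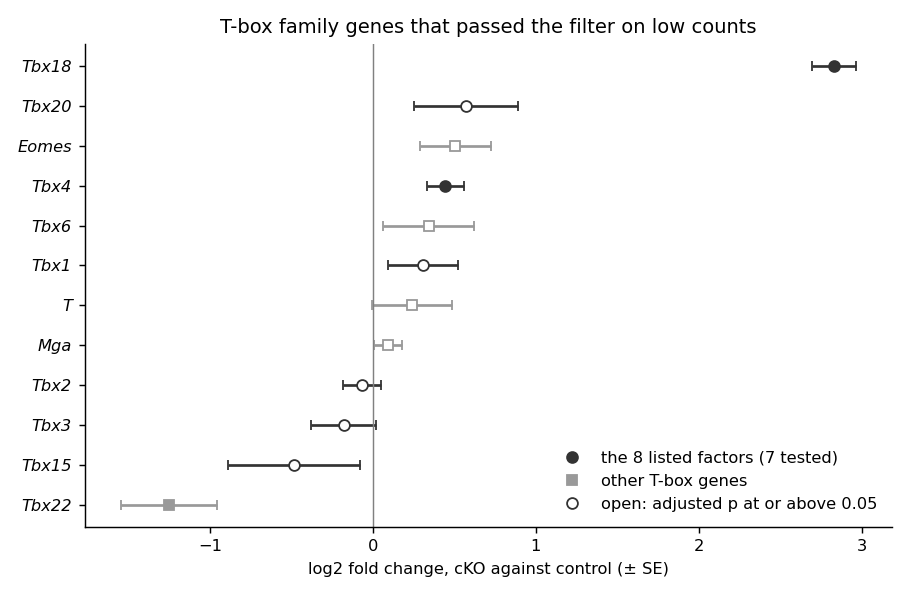
Log2 fold change of each tested T-box gene, cKO against control, with its SE (horizontal axis), ordered by size. Circles are the listed factors, squares the other family genes, and filled symbols passed an adjusted p of 0.05: Tbx18 at 2.83, Tbx4 at 0.44 and Tbx22 at -1.25.

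A list of 14 genes reported as targets of T-box factors in other tissues was read beside the factors. It and the lists below were chosen with earlier results of these data known, so shares of all genes are given as descriptions. The median log2 fold change of the 12 that were tested was 0.21, against 0.003 for all genes. By edgeR 5 of the 12 were higher, against 3.28% of all genes tested. None of the 12 was called lower by edgeR, against 4.85% of all genes tested. At an unadjusted p under 0.05 edgeR had 3 lower, and DESeq2 called 2 lower. Cdkn1a, a cell cycle inhibitor that Tbx2 and Tbx3 repress elsewhere and that other regulators also control, went from 7.99 ± 0.706 to 23.8 ± 7.35 CPM (log2 fold change 1.56, SE 0.18, adjusted p = 0.000174). Every cKO pool, from 14.6 to 34.7 CPM, lay above every control pool, from 6.97 to 8.93 CPM. Shisa3, a Wnt and FGF antagonist, went from 3.58 ± 1.04 to 6.90 ± 0.359 CPM (0.99, SE 0.16, adjusted p = 0.00182), also without overlap.

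Fgf10, the mesenchymal growth factor that Tbx4 and Tbx5 switch on in lung and limb, rose from 5.28 ± 1.18 to 10.2 ± 2.78 CPM (log2 fold change 0.94, SE 0.19, adjusted p = 0.00834), with 5 of 6 cKO pools above every control pool. Cdh1, the epithelial cadherin, and Frzb, a secreted Wnt inhibitor, rose by 0.50 and 0.48 on the log2 scale (adjusted p = 0.0419 and 0.0340). Each of these last calls held in 4 of the 12 fits that left out a library, with adjusted p up to 0.0936 for Cdh1 and 0.0762 for Frzb in the others. Gja1, a gap junction gene that Tbx2 and Tbx3 repress in the heart, had a log2 fold change of -0.38 and was not called (SE 0.11, adjusted p = 0.0580), nor was Ndrg1, at -0.81 (SE 0.25, adjusted p = 0.0584). Cdkn1b, a further cell cycle inhibitor of the list, and Smad7 were not called, with log2 fold changes of 0.10 and 0.03 (edgeR adjusted p = 0.793 and 0.881). The heart targets Nppa and Nppb were too low to test.

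Of the 12 known partners of T-box factors 10 were tested and 1 was lower. None was called higher by edgeR, against 1 at an unadjusted p under 0.05 and 1 by DESeq2. Over all genes tested, 4.85% were called lower and 3.28% higher. The lower gene was Hand2, a mesenchymal basic helix-loop-helix factor, which went from 6.49 ± 2.54 to 2.54 ± 0.774 CPM (log2 fold change -1.32, SE 0.26, adjusted p = 0.00595), with all 6 cKO pools below every control pool. Gata4, a partner in heart and gonad, averaged 336 and 351 CPM and was not called (adjusted p = 0.689). Gata6, at a log2 fold change of 0.43, was not called on all libraries (SE 0.13, adjusted p = 0.0548) and was called in those with low Xist (adjusted p = 0.0126).

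Of the 18 signals and factors that act upstream of T-box genes in other tissues, all were tested. By edgeR 1 was higher and 2 were lower, against 3.28% and 4.85% of all genes tested. DESeq2 and limma-voom called 3 lower, 2 were higher in the libraries with low Xist, and without control replicate 1 there were 3 higher and 3 lower. Bmp4, which induces Tbx2 and Tbx3 in several organs, was higher in all 6 cKO pools than in any control pool (11.8 and 15.2 CPM on average in control and cKO, log2 fold change 0.36, SE 0.09, adjusted p = 0.0286). Its call was lost without control replicate 6, or cKO replicate 1, 2 or 4 (adjusted p = 0.0651, 0.0712, 0.0502 and 0.0638). Wnt5a, itself an interstitial marker, and Wnt4 were lower, by log2 fold changes of -0.64 (SE 0.16, adjusted p = 0.0241) and -0.77 (SE 0.19, adjusted p = 0.0249). Wnt5a lost its call without control replicate 6, cKO replicate 3 or cKO replicate 6 (adjusted p = 0.0566, 0.05002 and 0.0544), and Wnt4 without cKO replicate 1 or 4 (adjusted p = 0.0574 and 0.0510). The hedgehog genes Ptch1 and Gli1, read-outs of that pathway, were not called, with log2 fold changes of 0.17 and -0.13.

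Of the 12 urogenital mesenchyme factors 10 were tested and 2 were lower, against 4.85% of all genes tested. The median log2 fold change of the 10 was -0.31. At an unadjusted p under 0.05 edgeR had 6 lower, and 5 were called lower by DESeq2, by limma-voom with sample quality weights, with Xist as a covariate and without control replicate 1, against 4 in the libraries with low Xist. None was higher by edgeR or DESeq2, also at an unadjusted p under 0.05. Tcf21, which also counts as an interstitial marker, went from 153 ± 14.97 to 74.8 ± 17.5 CPM (log2 fold change -1.03, SE 0.13, adjusted p = 0.000383). Osr1, an early factor of intermediate mesoderm, went from 6.73 to 3.78 CPM (-0.81, SE 0.15, adjusted p = 0.00430). Both were lower in all 6 cKO pools than in any control pool, the opposite side from Tbx18. Wt1, whose locus drives the Cre in the cKO, averaged 194 CPM in control and 147 CPM in cKO and was not called (log2 fold change -0.41, SE 0.12, adjusted p = 0.0604). It was called lower in 5 of the 12 alternatives, with adjusted p from 0.00106 to 0.116 over the 12, and in 2 of the 12 fits without a library. The plot of the lists gives every tested gene.

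**Figure D5:**
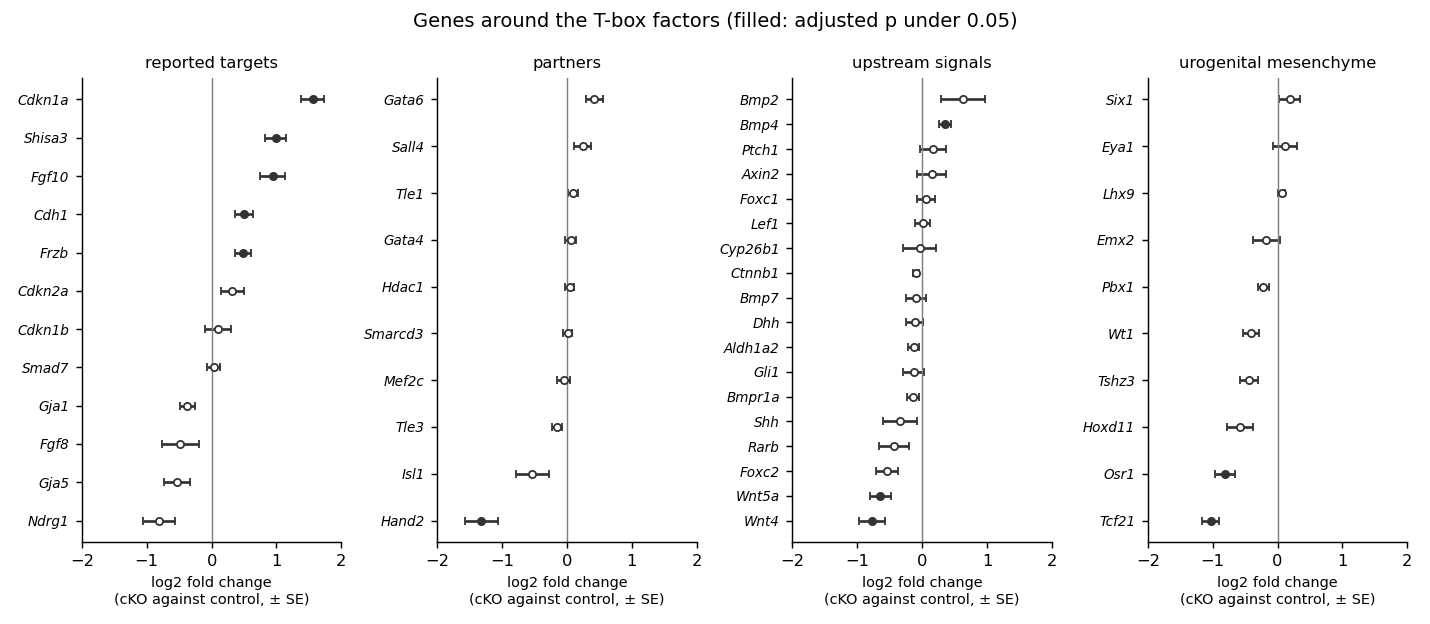
Log2 fold change, cKO against control, with its SE (horizontal axes) for the tested genes of 4 lists around the T-box factors, ordered by size within each list. Filled points passed an adjusted p of 0.05: 5 reported targets on the higher side, Hand2 among partners, Bmp4, Wnt5a and Wnt4 among upstream signals, and Osr1 and Tcf21 among urogenital mesenchyme factors.

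Within the groups, the members varied from pool to pool by different amounts. The coefficient of variation in control was 11.1% for Tbx2, 11.3% for Tbx4 and 11.4% for Tbx18. It was 32.2% for Tbx3, where control replicate 1 held the highest value. Correlations of the deviations from the group means are given as descriptions over 12 libraries, which share their depth and their cell makeup. Tbx2 and Tbx3 had a Pearson r of 0.66 and Tbx1 and Tbx15 one of 0.72, while Tbx2 and Tbx20 had one of -0.66. Tbx18 and Tbx4, the members called, had an r of -0.23.

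The genes most like each member by this measure, among 14262 genes, differed between members. For Tbx18 they were Sox6 (r of 0.85), Tet1 (0.84) and Smim24 (0.83), and for Tbx4 they were Bard1 (0.93), Zyg11a (0.89) and Ubl3 (0.88). Tbx2 was closest to Igsf3, Aff3 and Zfp423, at 0.96 each, and Tbx3 to 2900026A02Rik (0.97), Agtrap (0.97) and She (0.96). With so many genes and 12 libraries, values of this size are a description of these pools.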

How the data were processed

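Per the labels and the study's methods, the authors isolated total RNA from pools of 3 testes, made stranded mRNA libraries, trimmed reads with Trim Galore 0.6.7, mapped them to mm10 with STAR 2.5 and counted them per RefSeq gene and strand with featureCounts (Subread 1.5.0-p1). The deposited values are raw counts for 24470 genes. Here, genes were filtered with edgeR 4.0.16 (filterByExpr, minimum count 10, minimum total 15), scaled by TMM and tested with the quasi-likelihood F test (R 4.3.3, Benjamini-Hochberg over 15572 genes, threshold 0.05). CPM values use the TMM-scaled totals, and the biological coefficient of variation was 0.170. Exon lengths came from GENCODE M21 basic. No libraries of a group agreed within sampling noise (lowest chi-square per gene 2.46). On simulated counts of 15572 genes for this comparison, edgeR recovered 188 of 200 changed genes with 10 false calls. The simulated differences were all larger than that of Tbx4, in genes with higher levels than Tbx15 and Tbx20. Recovery for such members was not simulated.

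Alternatives were DESeq2 1.42.0, limma-voom (limma 3.58.1, with and without sample weights), other scalings and filters, a surrogate variable (sva 3.50.0), Xist as a covariate, the libraries with Xist under 100 CPM, a replicate block and each library left out. The members and gene lists were chosen with earlier results of these data known. Named are all T-box genes, the called genes of each gene list with some of its other genes, and called neighbours within 200 kb. The 3 genes most like a member are also named (mean of at least 1 CPM, Pearson r of deviations of log2 CPM with prior count 2). Protein sequences, and promoters of the 4 members without an entry, were not used here.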

Additional observations from a re-analysis of the deposited data

Results flagged for a closer look

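Among 16 sets of 6 pools tested for a pool far from the others (Dixon's test at its 95% critical value), 2 stood out, both of Tbx5. Chance marks about 1 in 20 such sets of continuous values, a rate that does not apply to counts this near 0. Control replicate 2 held 0.0407 CPM of Tbx5, which is 1 count, where the other 5 control pools held none, so that any count would have stood out. cKO replicate 6 held 0.184 CPM of Tbx5, which is 11 counts, against at most 2 counts in the other cKO pools.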

How the results depend on the processing

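The number of T-box factors called lower was 0 in each of the 24 other fits. The number called higher was 2 in edgeR on all libraries and 1 in the libraries whose Xist was low (under 100 CPM), and it ranged from 1 to 2 when 1 library was left out, since Tbx4 lost its call there. The labels do not say that same-numbered pools are paired. Their deviations correlated from -0.33 to 0.24, which cannot exclude a shared litter or batch. With a replicate block the number called higher was 1, as Tbx4 had an adjusted p of 0.0932. Over all genes the block called 931 in place of 1266. Tbx18 was called in all 12 alternatives and all 12 fits without a library. Tbx2 and Tbx3 each changed sign in 2 of 12 alternatives and Tbx15 in 1, none of them called. Of the 21 genes named as most like a member, 20 stayed among the 3 most like with a prior count of 0.5 and 10 with Spearman's rho; the cause was not tested. Over all genes, calls went from 1266 to 1919 with DESeq2, 3860 with sample quality weights, 3106 without control replicate 1 and 816 without cKO replicate 4. Other scalings moved the median of all genes to at most 0.03. Depth limits Tbx5, Tbx15 and Tbx20.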

Other observations

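Tbx18 sits in a gene-poor stretch of chromosome 9, and its 3 nearest genes on each side were looked at after the values were seen. The closest, Cep162, lies 447 kb away and averaged 32.6 CPM in control and 33.5 CPM in cKO (edgeR adjusted p = 0.772). Nt5e, which encodes the cell surface enzyme CD73 and lies 596 kb away on the other side, was higher in cKO, at 36.6 against 51.0 CPM (log2 fold change 0.49, SE 0.13, adjusted p = 0.0284). Cyb5r4, at 625 kb, was higher as well, at 34.0 against 41.5 CPM (log2 fold change 0.29, SE 0.08, adjusted p = 0.0371). Mrap2, Snx14 and Syncrip were not called.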
